A study of Mus musculus with 8 samples.

Results

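The genes described here are 9 genes of iron handling, iron-sulphur cluster assembly and oxygen storage, out of 23336 genes in the count table: Tfrc, Hfe2, Fth1, Ftl1, Aco1, Ireb2, Glrx5, Iscu and Mb. They were taken by symbol, and the set was chosen by a rule that used the difference between the groups of this study, since Glrx5, Mb and Tfrc had been seen to differ in it. Their fold changes and adjusted p values are therefore a description of these 8 libraries and no independent support for a change in iron handling. All 9 passed the filter on low counts, as did 15241 of the 23336 genes.

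The study compared skeletal muscle of newborn C57BL/6 mice, labelled female, at postnatal day 2. There were 4 mice with the genotype ΔDMR1-U2, a deletion at the imprinted Igf2 locus, here also called mutant, and 4 wild-type mice, each group with libraries named 1A, 1B, 2 and 3. RNA depleted of ribosomal RNA was sequenced, and the study asked about transcripts of Igf2as, which runs antisense to Igf2. The sources used here give neither the parent that transmitted the deletion, nor its coordinates, nor which muscle was dissected, and the labels name no further allele or treatment in either group.

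Cells take up iron as transferrin bound to the transferrin receptor (Tfrc), store it in the shell formed by ferritin heavy and light chains (Fth1, Ftl1), and pass it to mitochondria, where it is built into haem and into iron-sulphur clusters. The scaffold Iscu and the glutaredoxin Glrx5 serve that assembly line, and myoglobin (Mb) is the haem protein that binds oxygen in muscle fibres. The iron regulatory proteins Aco1 and Ireb2 bind hairpins called iron-responsive elements in mRNAs when iron is scarce: bound near the start of a ferritin mRNA they block its translation, and bound in the tail of the Tfrc mRNA they protect it from decay. Hemojuvelin (Hfe2) is a membrane co-receptor for bone morphogenetic proteins that is abundant in skeletal muscle and acts, in liver, in the control of the iron hormone hepcidin.

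The hairpins are shown because Aco1 and Ireb2, both among the 9 genes, bind such hairpins in the transcripts of others of the 9. Spliced transcripts of the GENCODE mouse annotation for mm10 were searched, on the sense strand only, for a C, 5 bases, the loop CAGTGN and 5 bases that pair back with the first 5, G-T pairs allowed. Capitals mark the 6 bases of the loop, and each sequence reads 5′ to 3′ along the mRNA.
Fth1, 5′ UTR, chr19:9982732-9982760, plus strand: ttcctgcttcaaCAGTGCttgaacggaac
Ftl1, 5′ UTR, chr7:45459779-45459807, minus strand: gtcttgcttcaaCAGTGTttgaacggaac
Tfrc, 3′ UTR, chr16:32631219-32631247, plus strand: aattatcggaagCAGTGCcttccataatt
Tfrc, 3′ UTR, chr16:32631598-32631626, plus strand: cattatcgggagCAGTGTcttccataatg
Tfrc, 3′ UTR, chr16:32631663-32631691, plus strand: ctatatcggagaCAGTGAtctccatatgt
Tfrc, 3′ UTR, chr16:32631710-32631738, plus strand: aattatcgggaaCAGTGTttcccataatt
The ferritin transcripts each held 1 match, and that of Tfrc held 4 matches in its 3′ UTR. The letters were not found in the UTRs of Glrx5, Mb, Iscu, Hfe2, Ireb2 or Aco1. Of 21901 protein-coding genes, 0.142% had a match in a 5′ UTR and 0.589% in a 3′ UTR. A match is a description of the sequence, and binding was not measured.

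Total counts lay between 16084413 and 26913636 per library. Igf2as, the check on the genotype, lay between 5.55 and 6.18 CPM (counts scaled to a common library size) with the deletion and between 54.4 and 72.2 CPM without it. The library labelled ΔDMR1-U2 1A went against its label of female: Xist, which coats the inactive X chromosome, had 49 counts there and 21122 or more in each of the other 7 libraries. ΔDMR1-U2 library 1B lay at the end of the first principal component, at -41.7 against -16.9 to 23.9 in the rest, so the genes that differed most are also given without these libraries. Fibre markers were high, as the tissue label has it, with mean levels of the giant sarcomere protein titin (Ttn) of 111232 CPM in mutant and 123527 CPM in wild-type muscle, and of the perinatal myosin heavy chain Myh8 of 27162 and 29842 CPM. Of the heart muscle markers, Nkx2-5 and Myl7 were at or near 0, while Actc1, Myl4 and Myh6 were detected, Myh6 at 35.5 and 32.3 CPM.

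Levels between genes were compared per kilobase of exon (RPKM). The length is the union of all annotated exons of a gene, and the order below depends on it. The light chain of ferritin was highest, at 154 ± 8.90 RPKM (SD over the 8 libraries), followed by Hfe2 at 71.2 ± 12.8 and Fth1 at 57.7 ± 5.52 RPKM. Tfrc stood at 27.9 ± 6.86, Aco1 at 14.3 ± 1.04 and Ireb2 at 11.2 ± 0.708 RPKM. Mb, Glrx5 and Iscu were lowest, at 7.82 ± 2.39, 6.54 ± 1.31 and 6.26 ± 0.318 RPKM.

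Within wild-type muscle Hfe2, at 80.2 ± 3.94 RPKM, lay above Fth1, at 60.3 ± 5.33, by more than their spread, and in ΔDMR1-U2 muscle, at 62.2 ± 12.2 and 55.2 ± 5.01 RPKM, it did not (SD, n = 4 each). Over all 8 libraries, whose spread holds the difference between the groups, Mb, Glrx5 and Iscu did not differ beyond it. The order of those last 3 genes by mean was not the same in both groups: wild-type muscle had 9.87 ± 0.764 RPKM of Mb, 7.72 ± 0.389 of Glrx5 and 6.15 ± 0.273 of Iscu, and ΔDMR1-U2 muscle had 6.36 ± 0.361 of Iscu, 5.76 ± 1.22 of Mb and 5.35 ± 0.344 of Glrx5 (n = 4 each). In ΔDMR1-U2 muscle Mb did not differ from Iscu or Glrx5 beyond its SD, so its place there is not settled. The level of Ftl1 is uncertain, because 90.6% of the 50-base words of its mRNA also occur in other annotated genes, 17 in number, of which 8 are pseudogenes. The same share was 34% for Mb, with 1 other gene, 15.5% for Iscu and 4.01% for Fth1, and 0 for the other 5 genes. Words were sought on either strand, so genes that overlap Mb or Ftl1 in place, named below, can be among the other genes.

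**Figure D1:**
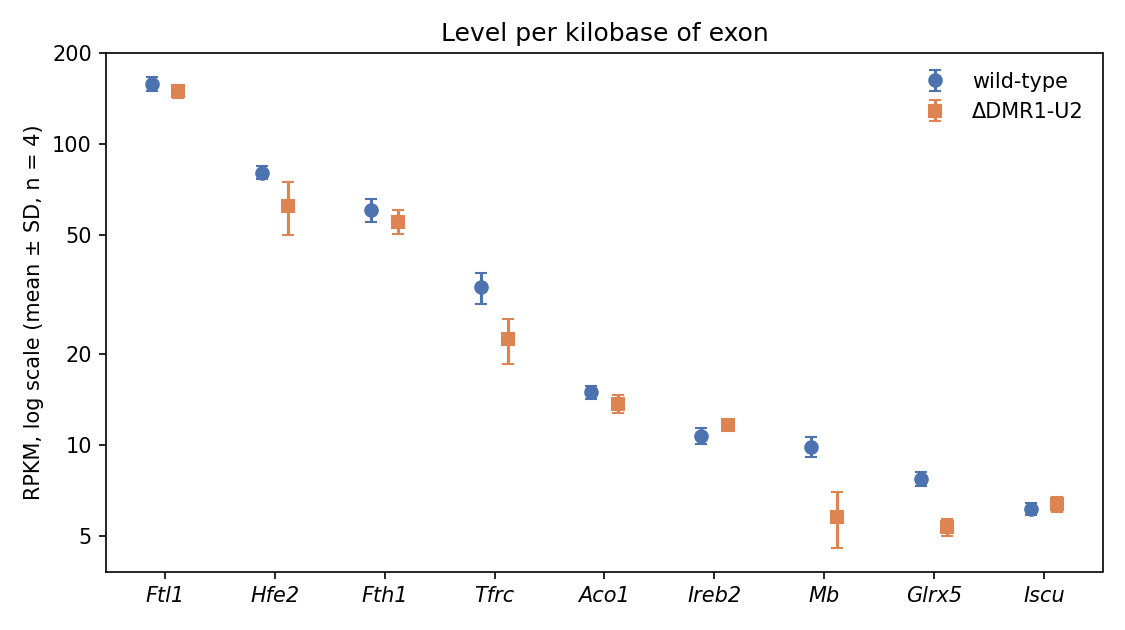
Level of each of the 9 genes in RPKM (vertical axis, log scale) in wild-type and ΔDMR1-U2 muscle, as mean and SD of 4 libraries. Ftl1 is highest in both groups, and the mean of Iscu, lowest in wild-type, lies above those of Mb and Glrx5 in ΔDMR1-U2, though within the SD of Mb.

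Of the 9 genes, 2 were called lower in ΔDMR1-U2 muscle, Mb and Glrx5, and 0 were called higher (0 also by DESeq2, and 0 higher at an unadjusted p under 0.05). A gene is called here where its adjusted p lies under 0.05 (edgeR quasi-likelihood test, Benjamini-Hochberg over all tested genes), which held for 1.13% of the 15241 tested genes, 0.617% lower and 0.512% higher. In 3 of the 9, Mb, Glrx5 and Tfrc, every ΔDMR1-U2 library lay below every wild-type library, whereas the groups did not overlap in 12.8% of all tested genes, 6.38% with ΔDMR1-U2 the lower. Nothing is read from these shares, since the contrast took part in the choice of the genes. A lower level in whole muscle can come from less RNA per cell or from fewer cells of a type, and bulk libraries cannot tell these apart.

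**Figure D2:**
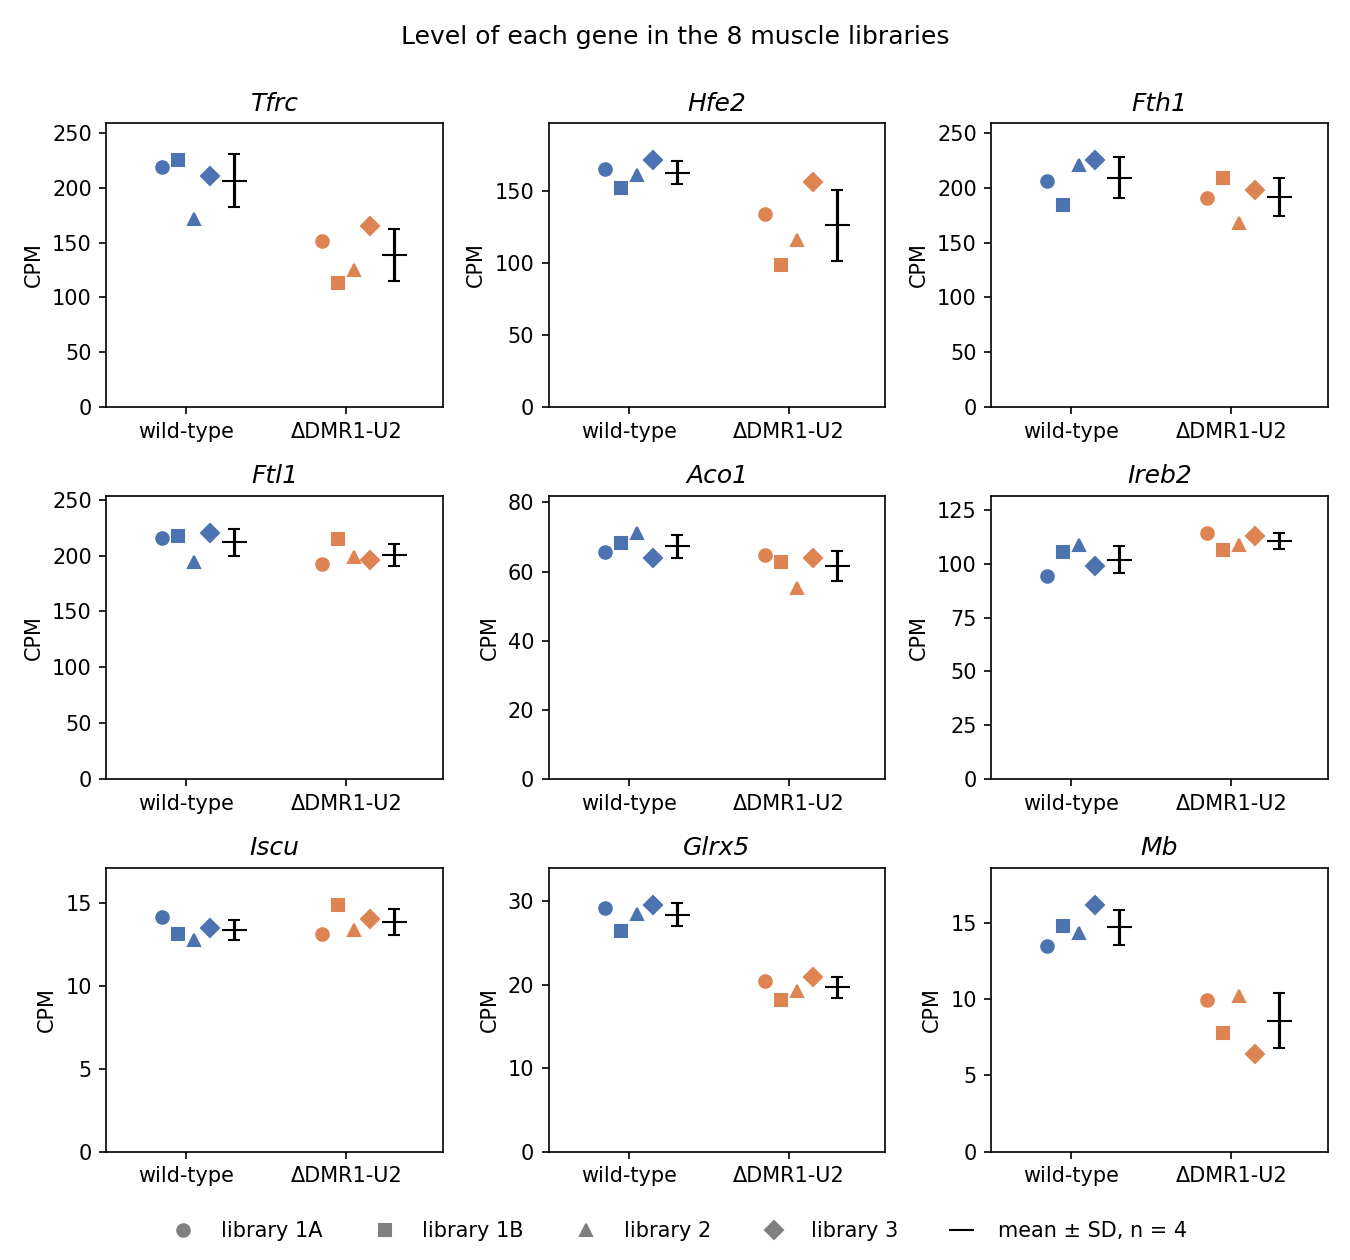
Level of each gene in CPM (vertical axis, from 0) in the 4 wild-type and 4 ΔDMR1-U2 libraries, with a marker shape for each library name and a bar for mean and SD. The groups are apart for Tfrc, Glrx5 and Mb, and overlap for the other 6 genes.

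Mb, the oxygen-binding haem protein of muscle, was lower by 41.9% in ΔDMR1-U2 muscle. It stood at 9.96, 7.79, 10.2 and 6.41 CPM in mutant libraries 1A, 1B, 2 and 3, and at 13.5, 14.8, 14.4 and 16.2 CPM in their wild-type namesakes. The highest ΔDMR1-U2 value lay below the lowest wild-type value, and ΔDMR1-U2 library 3 was the lowest of the 8. Behind these levels stand 130 to 195 counts a library with the deletion and 208 to 388 without it.

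The mean fell from 14.7 ± 1.14 to 8.59 ± 1.81 CPM (SD, n = 4 each), a log2 difference of -0.78 ± 0.14 (SE, adjusted p = 0.0348, edgeR). For Mb, wild-type over ΔDMR1-U2 is 1.72 in the authors' deposited table (their adjusted p = 0.000760). Without ΔDMR1-U2 library 1A the log2 fold change was -0.86 (adjusted p = 0.0425, edgeR), without 1B it was -0.74 (adjusted p = 0.0534, edgeR) and without both it was -0.84 (adjusted p = 0.0982, edgeR). Of 8 fits that each left out 1 library, Mb was called in 2, those without ΔDMR1-U2 library 1A or 2, while its log2 fold change ran from -0.87 to -0.66.

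Mb lies at chr15:77015487-77050670 on the minus strand of mm10. Of its exonic bases, 27.6% are shared with the antisense gene Gm49540 and 4.29% with Apol6, both on the plus strand. The sources used here do not say whether strand was used in counting, so reads of these genes from the shared bases cannot be told apart.

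Glrx5, the mitochondrial glutaredoxin that passes newly made clusters on from the scaffold, was lower by 30.6% and had the smallest p of the 9 genes in edgeR. In the authors' deposited table the smallest p of the 9 was that of Mb. Its levels were 20.5, 18.1, 19.3 and 20.96 CPM in mutant libraries 1A, 1B, 2 and 3, and 29.3, 26.4, 28.5 and 29.6 CPM in wild-type. The 4 libraries of each group lay close together, with a coefficient of variation of 6.43% in ΔDMR1-U2 and 5.04% in wild-type, against 21.1% and 7.74% for Mb. Even the lowest wild-type library, 1B, lay well above the highest ΔDMR1-U2 library, 3.

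Glrx5 fell from 28.4 ± 1.43 to 19.7 ± 1.27 CPM (SD, n = 4 each), a log2 difference of -0.53 ± 0.08 (SE, adjusted p = 0.0231, edgeR). For Glrx5, wild-type over ΔDMR1-U2 is 1.44 in the authors' deposited table (their adjusted p = 0.0231). The log2 fold change was -0.54 without ΔDMR1-U2 library 1A (adjusted p = 0.0350, edgeR) and -0.49 without 1B (adjusted p = 0.0260, edgeR), and with neither library in the fit it was -0.50 (adjusted p = 0.0825, edgeR). It ran from -0.56 to -0.49 over the 8 fits that left out 1 library, of which 4 called it. It was not called in the fits that left out mutant library 3 or wild-type library 1A, 2 or 3. Glrx5 lies at chr12:105032688-105042906, and no other annotated gene shares its exonic bases.

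Iscu, the scaffold on which the cluster is first built and from which Glrx5 receives it, was not called. It ran from 13.1 to 14.9 CPM in mutant and from 12.8 to 14.1 CPM in wild-type, with means of 13.8 ± 0.786 and 13.4 ± 0.595 CPM (SD, n = 4 each). The groups overlapped, and the log2 fold change stood at 0.05 ± 0.08 (SE, adjusted p = 0.750, edgeR). The difference between Glrx5 and Iscu in their response was not tested. Iscu lies at chr5:113772748-113778288.

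Tfrc, the receptor that brings transferrin-bound iron into the cell and whose transcript carries the 4 hairpins shown above, stood at 151, 113, 125 and 165 CPM in mutant libraries 1A, 1B, 2 and 3. In wild-type it stood at 219, 225, 171 and 211 CPM. The groups did not overlap, but wild-type library 2 came close to ΔDMR1-U2 library 3. Its depth was the greatest of the 3 genes whose groups were apart, with 2095 to 3340 counts in ΔDMR1-U2 libraries and 3370 to 5885 in wild-type libraries.

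The means were 139 ± 23.6 CPM in mutant and 206 ± 24.2 CPM in wild-type (SD, n = 4 each), a log2 difference of -0.57 ± 0.12 (SE). Its adjusted p of 0.0534 (edgeR) missed the threshold, so Tfrc was not called. DESeq2, which called 6.15% of 15133 genes, gave the same log2 fold change with an adjusted p of 0.000958. For Tfrc, wild-type over ΔDMR1-U2 is 1.49 in the authors' deposited table (their adjusted p = 0.0199). With no filter on low counts Tfrc passed in edgeR (adjusted p = 0.0370), and in the 8 fits that left out 1 library it passed in 0, at adjusted p values of 0.0572 to 0.167. The log2 fold change was -0.62 with mutant library 1A left out, -0.49 with 1B and -0.51 with both left out (adjusted p = 0.0632, 0.0716 and 0.160, edgeR). Tfrc lies at chr16:32608920-32632794, on the plus strand.

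Hfe2, the hemojuvelin gene at chr3:96525172-96529210, had 134, 98.5, 116 and 156 CPM in mutant libraries 1A, 1B, 2 and 3, and 165, 152, 161 and 171 CPM in wild-type. ΔDMR1-U2 library 3 lay above wild-type library 1B, so the groups overlapped. The means were 126 ± 24.8 CPM (SD, n = 4) and 163 CPM, with a log2 difference of -0.37 ± 0.12 (SE), and the gene was not called (adjusted p = 0.128, edgeR). ΔDMR1-U2 libraries varied more than wild-type ones, with coefficients of variation of 19.6% and 4.92%.

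Hfe2 and Tfrc ranked the ΔDMR1-U2 libraries alike, with library 3 highest and library 1B lowest, while Mb had its lowest value in library 3. Over the 8 libraries the Pearson correlation of log2 CPM was 0.89 between Tfrc and Hfe2, 0.89 between Tfrc and Glrx5, 0.87 between Glrx5 and Hfe2 and 0.84 between Glrx5 and Mb. For Tfrc and Mb it was 0.69. The libraries share their group, which enters each of these values, and the correlations are a description of 8 points.

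The ferritin chains, which store iron and carry the hairpin in the 5′ UTR, were not called. Fth1, at chr19:9980598-9985098, ran from 168 to 209 CPM in mutant and from 184 to 225 CPM in wild-type, and Ftl1, at chr7:45457944-45459884, from 193 to 215 CPM and from 194 to 221 CPM. The groups overlapped for both genes. The log2 fold change stood at -0.13 ± 0.09 (SE) for Fth1 and -0.08 ± 0.07 (SE) for Ftl1 (adjusted p = 0.410 and 0.508, edgeR). Ferritin protein was not measured. Of the exonic bases of Ftl1, 26.5% are shared with Gm10252 on the opposite strand and 8.13% with the miRNA gene Gm22133.

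The iron regulatory proteins were not called either. Aco1, the cytosolic aconitase that binds hairpins when it lacks its cluster, ran from 55.2 to 64.9 CPM in mutant and from 63.9 to 71.3 CPM in wild-type. On the log2 scale the difference was -0.13 ± 0.07 (SE, adjusted p = 0.319, edgeR). Ireb2, the iron regulatory protein that is controlled through its breakdown, ran from 106 to 114 CPM in mutant and from 94.5 to 109 CPM in wild-type, with a log2 difference of 0.12 ± 0.06 (SE, adjusted p = 0.303, edgeR). Both genes overlapped between the groups, with Ireb2 higher on average in ΔDMR1-U2. They lie at chr4:40143081-40198338 and chr9:54863789-54912530.

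**Figure D3:**
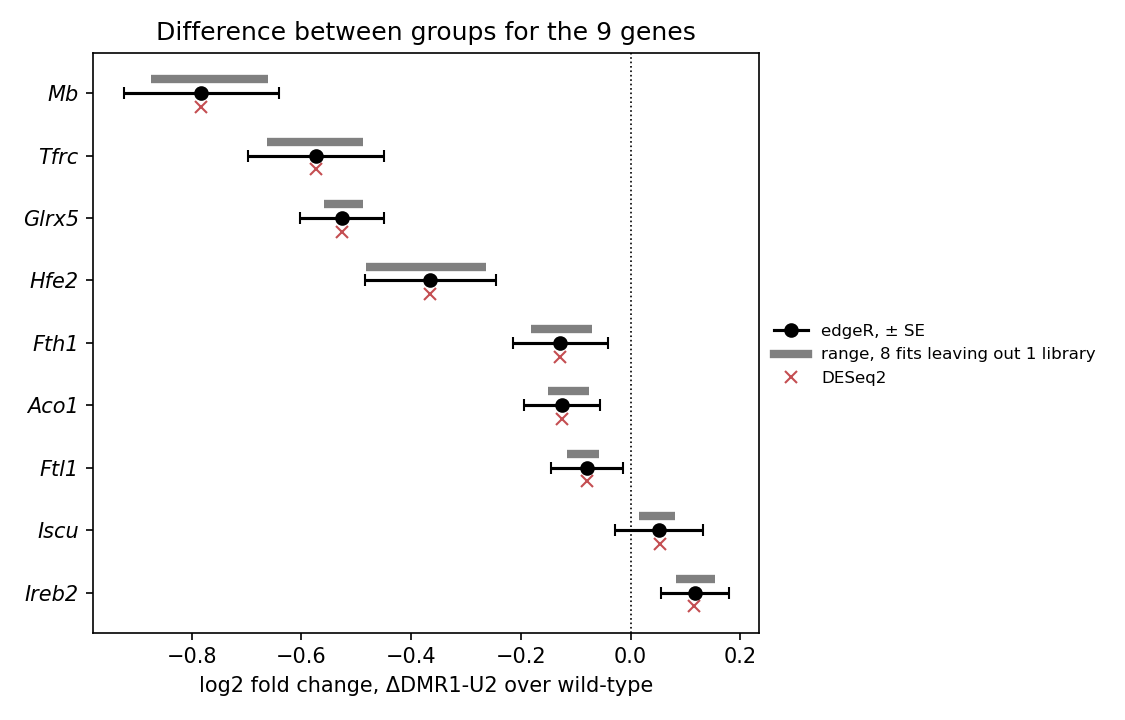
Log2 fold change of ΔDMR1-U2 over wild-type (horizontal axis) for each gene, with the edgeR estimate and its standard error, the range over 8 fits that each left out 1 library, and the DESeq2 estimate. Mb, Tfrc and Glrx5 lie furthest below 0, and no gene changes sign in the 8 fits.

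Among listed iron genes outside the 9, the same hairpin was found in the 5′ UTR of Alas2, the first enzyme of haem synthesis in red cells, and of Slc40a1, the iron exporter ferroportin, and in the 3′ UTR of Bola3, a protein that hands clusters to mitochondrial enzymes. Their log2 fold changes were -0.29, 0.15 and -0.53, and none of these 3 was called (adjusted p = 0.619, 0.269 and 0.0575, edgeR). Tfrc and Bola3, with the motif in a 3′ UTR, had values below -0.5 without passing the test (edgeR). With the motif in a 5′ UTR, Fth1, Ftl1, Alas2 and Slc40a1 lay at -0.13, -0.08, -0.29 and 0.15. Any link between the place of the motif and these values was not tested, and nothing is read from so few genes. The match in Bola3 is one of sequence only, of a kind found in the 3′ UTR of 0.589% of protein-coding genes.

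Fibre markers were set beside Mb, Glrx5, Tfrc and Hfe2. The summed level of 12 skeletal muscle fibre markers ran from 167639 to 187450 CPM in mutant and from 183582 to 216431 CPM in wild-type, so the groups overlapped. Most of that sum was Ttn, at means of 111232 CPM in mutant and 123527 CPM in wild-type. Ratios to the sum are thus mostly ratios to Ttn. All 12 log2 fold changes lay below 0, the direction of Mb and Glrx5, with a median of -0.17. They ran from -0.39 for Tnnc2 to -0.02 for desmin (Des), with Ttn at -0.15. Of the 12, edgeR called 1 lower, Tnnc2, the fast troponin C, 4 had an unadjusted p under 0.05, and DESeq2 called 3, Tnnc2, Mylpf and Myh3. Over all tested genes, edgeR called 1.13% and DESeq2 6.15%, 21.3% had an unadjusted p under 0.05 (edgeR) and 50.2% lay below 0. From 10 to 12 lay below 0 in the 8 fits that left out 1 library, and scaling to their own sum set the median to about 0 by construction. Per 100000 counts of these markers, Mb had 4.85 ± 1.02 counts in mutant and 7.44 ± 0.841 in wild-type, and Glrx5 11.1 ± 0.731 and 14.3 ± 0.565 (SD, n = 4 each). Neither gene overlapped between the groups on this scale, with a highest ΔDMR1-U2 value of 5.81 against a lowest wild-type value of 6.24 for Mb, and 11.96 against 13.5 for Glrx5. The share of all tested genes without overlap was not taken on this scale, and in CPM it was 12.8%. Nothing is read from this, since both genes were chosen with the contrast known.

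Tfrc and Hfe2 did overlap on this scale. Tfrc had 78.2 ± 12.7 counts per 100000 in mutant and 104 ± 13.8 in wild-type, with a highest ΔDMR1-U2 value of 90.1 above the lowest wild-type value of 89.4. In a fit scaled to the marker sum, chosen after the values were seen, the log2 fold change was -0.62 for Mb, -0.36 for Glrx5 and -0.41 for Tfrc (adjusted p = 0.0418, 0.0496 and 0.0691, edgeR). That scaling raised the median of all genes by 0.16 and turned the values of Fth1, Ftl1 and Aco1 positive, to 0.04, 0.09 and 0.04. It also moved the called genes from 78 higher and 94 lower to 557 higher and 63 lower.

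**Figure D4:**
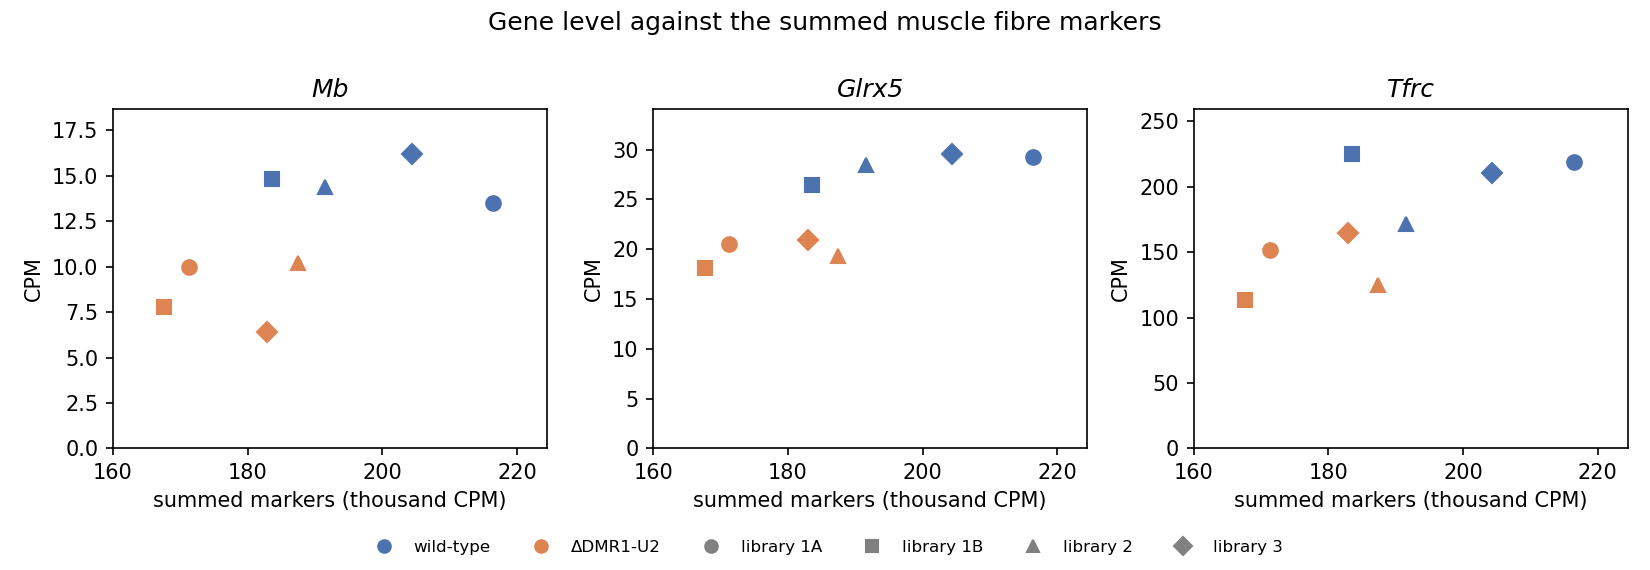
Level of Mb, Glrx5 and Tfrc in CPM (vertical axis, from 0) against the summed level of 12 muscle fibre markers, most of it Ttn, in CPM (horizontal axis) in each library. ΔDMR1-U2 points lie below wild-type points in each panel, and the marker sums of the groups overlap.

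Markers of other cells were measured in the same libraries, and their part in the results was not tested. Their counts stand beside 1.13% of all tested genes called by edgeR, 6.15% by DESeq2 and 21.3% at an unadjusted p under 0.05 (edgeR). The 19 erythroid markers in the table summed to 405 to 632 CPM in mutant and 511 to 1153 CPM in wild-type, with 0 of 15 tested called by edgeR (6 at an unadjusted p under 0.05, and 3 called by DESeq2) and Hba-a2, Hbb-b1 and Hbb-b2 at 0 in every library. The most abundant were Beta-s, the row of the adult beta globin, at 192 ± 58.0 and 316 ± 266 CPM, and Spnb1, a spectrin that muscle also expresses, at 294 ± 39.4 and 300 ± 37.6 CPM (SD, n = 4 each). The globin rows at 0 are not read as absent transcripts. Hbb-b1 and Hbb-b2 had no match in the GENCODE annotation, and how reads shared by similar genes were counted is not given. Wild-type library 3 had the highest erythroid sum, and without it the log2 fold change was -0.56 for Tfrc, -0.51 for Glrx5 and -0.73 for Mb. The median log2 fold change of the list was 0.36, which was 0.0060 without ΔDMR1-U2 library 1A and 0.99 without wild-type library 3. Chosen after their values were seen, the erythroid transcription factors Gata1 and Klf1 had log2 fold changes of 1.26 and 1.62 (adjusted p = 0.0575 and 0.0781, edgeR), at mean levels of 1.12 and 1.01 CPM in mutant and 0.456 and 0.322 CPM in wild-type.

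Macrophage markers, led by Mrc1 and Csf1r, summed to 326 to 384 CPM in mutant and 360 to 470 CPM in wild-type, with 0 of 12 tested called (3 at an unadjusted p under 0.05, and 0 called by DESeq2). Here and for the lists that follow, the share of all tested genes at an unadjusted p under 0.05 (edgeR) was 21.3%, and 50.2% lay below 0. Heart muscle markers, led by Actc1 and Myl4, which young skeletal muscle also expresses, summed to 1955 to 3057 and 2726 to 4129 CPM, with 0 of 4 tested called by edgeR (1 at an unadjusted p under 0.05, Actc1, which DESeq2 called lower). Adipocyte markers, led by Fabp4 and Adipoq, summed to 250 to 632 CPM in mutant and 190 to 256 CPM in wild-type. All 7 tested adipocyte genes had log2 fold changes above 0, with a median of 0.73, and 2 had an unadjusted p under 0.05, Cidea, which edgeR and DESeq2 called higher, and Fabp4, at 0.72, whose groups did not overlap (adjusted p = 0.104, edgeR). Groups did not overlap in 12.8% of all tested genes. The highest sum was that of ΔDMR1-U2 library 1B, and without it 2 of the 7 lay above 0 and the median was -0.17.

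The wider pathway was followed through 7 lists, drawn up with earlier results of these data known. Across all 7, the genes called were Glrx5 and Mb, and the median log2 fold change of all tested genes was -0.00. DESeq2 called 10, namely Tfrc, Steap3, Lcn2, Cp and Smad4 in the list of uptake, Glrx5 and Bola3 in mitochondrial assembly, Uros and Abcg2 in haem and Mb among the globins. Tfrc, Glrx5 and Mb among them belong to the 9 genes chosen with this contrast known. DESeq2 called 6.15% of 15133 genes, and an unadjusted p under 0.05 (edgeR) was had by 21.3% of all tested genes. Uptake, export and systemic control of iron had 0 of 25 tested genes called, 7 with an unadjusted p under 0.05 (edgeR) and a median of 0.05, with 12 values below 0. The most abundant genes outside the 9 were Bmpr1a, a receptor of bone morphogenetic proteins, at 290 ± 18.7 and 272 ± 11.7 CPM in mutant and wild-type, and Neo1, neogenin, which binds hemojuvelin, at 183 ± 16.2 and 191 ± 6.05 CPM (SD, n = 4 each). Their log2 fold changes were 0.09 and -0.06, and that of Neo1 was 0.10 when scaled to the muscle markers.

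Several genes of this list lay just above the threshold, and they are named here after their values were seen. Ceruloplasmin (Cp), which oxidises iron for export, was at 23.5 ± 3.53 CPM in mutant and 14.6 ± 2.72 CPM in wild-type (log2 fold change 0.68, adjusted p = 0.0505, edgeR). Lcn2, lipocalin-2, which binds iron-carrying siderophores, was at 10.4, 62.7, 6.09 and 20.3 CPM in mutant libraries 1A, 1B, 2 and 3, against 1.62 to 6.03 CPM in wild-type (log2 fold change 2.97, adjusted p = 0.0608, edgeR). Library 1B thus had the most Lcn2 by a wide margin. Steap3, a reductase of endosomal iron, was at 15.6 ± 2.43 and 21.9 ± 2.36 CPM, with a log2 fold change of -0.49 (adjusted p = 0.0710, edgeR).

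Storage, chaperones and hairpin-binding proteins had 0 of 8 tested genes called by edgeR or DESeq2, 0 with an unadjusted p under 0.05 and a median of -0.03. The iron chaperone Pcbp2 had a log2 fold change of 0.16 (adjusted p = 0.235, edgeR), and Fbxl5, which marks Ireb2 for breakdown, one of 0.09 (adjusted p = 0.495, edgeR).

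Mitochondrial iron import and cluster assembly had 1 of 23 tested genes called lower, Glrx5, 0 called higher, 6 with an unadjusted p under 0.05 (edgeR) and a median of -0.13. Of the 23, 17 lay below 0, beside 50.2% of all tested genes. Bola3, named after its values were seen, was at 11.3 ± 1.81 CPM in mutant and 16.3 ± 1.20 CPM in wild-type, and its groups did not overlap. That held for 4 of the 23, Glrx5 among them, beside 12.8% of all tested genes. Hspa9, the chaperone of the assembly complex and the most abundant of the list, had a log2 fold change of -0.20 (adjusted p = 0.220, edgeR), and Isca1, which acts in making larger clusters, one of -0.16 (adjusted p = 0.298, edgeR). The median of the list stayed below 0 in each of the 8 fits that left out 1 library, from -0.17 to -0.09, and was 0.04 when scaled to the muscle markers, under the 0.16 of all genes.

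Cytosolic cluster assembly had 0 of 11 tested genes called by edgeR or DESeq2, 1 with an unadjusted p under 0.05 and a median of -0.08, with log2 fold changes of 0.11 for Mms19 and 0.00 for Ciao1, both of which deliver clusters to nuclear and cytosolic proteins. The proteins that hold clusters had 0 of 28 called by edgeR or DESeq2, 11 with an unadjusted p under 0.05, a median of -0.13 and 19 values below 0. That median ran from -0.17 to -0.10 in the fits that left out 1 library and was 0.04 when scaled to the muscle markers, under the 0.16 of all genes.

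Haem synthesis, breakdown and transport had 0 of 19 tested genes called, 4 with an unadjusted p under 0.05 (edgeR) and a median of -0.02. Alas1, the first enzyme of haem synthesis outside red cells, was at 55.1 ± 5.62 CPM in mutant and 65.3 ± 9.48 CPM in wild-type (log2 fold change -0.24, adjusted p = 0.233, edgeR), and Pgrmc1, a haem-binding membrane protein, had 0.11 (adjusted p = 0.451, edgeR). Named after their values were seen, Uros, an enzyme in the middle of the haem pathway, had -0.39 (adjusted p = 0.0575, edgeR) and Abcg2, a transporter that can export porphyrins, had 0.27 (adjusted p = 0.0585, edgeR). They were the 2 genes of the 19 whose groups did not overlap, beside 12.8% of all tested genes. Of 12 globin genes in the table, 8 had a count in some library and 4 were tested, of which Mb was called lower. Cygb, cytoglobin, had 0.26 (adjusted p = 0.207, edgeR), and Beta-s had -0.72 (adjusted p = 0.371, edgeR), which was 0.06 without wild-type library 3.

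**Figure D5:**
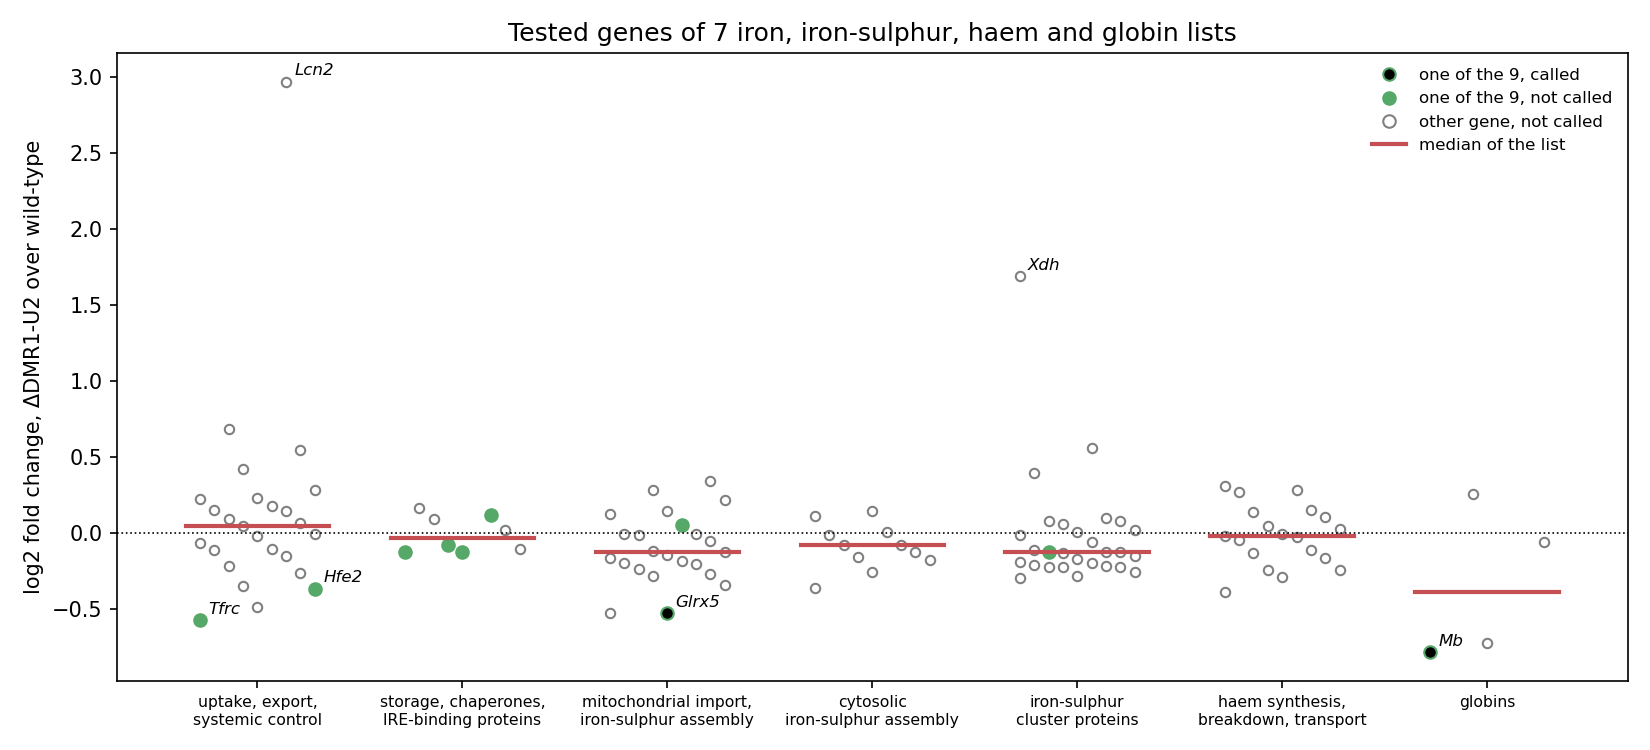
Log2 fold change of ΔDMR1-U2 over wild-type (vertical axis) for every tested gene of 7 lists, with a bar at the median of each list. Filled points are the 9 genes, and Glrx5 and Mb are the called ones. The highest point of the first list, Lcn2 at 2.97, was not called.

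For Mb, Glrx5 and Tfrc, the 3 tested genes whose log2 CPM followed each most closely over the 8 libraries were taken by Pearson correlation. For Mb they were P2ry2, a nucleotide receptor, at 0.98, Myo1e, an unconventional myosin, at 0.97 and Ide, the insulin-degrading enzyme, at 0.97. For Glrx5 they included Fam19a3 and Acot13, a thioesterase, each at 0.99. For Tfrc they were Aldh1a3, a retinaldehyde dehydrogenase, at 0.98, and Ecsit and Gbf1 at 0.97.

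The difference between the groups enters these correlations, so they were also taken after removing each group's mean. They were then 0.88, 0.96 and 0.85 for the genes beside Mb, 0.91 and 0.94 for Fam19a3 and Acot13 beside Glrx5, and 0.92, 0.93 and 0.90 for those beside Tfrc. P2ry2 was called lower, from 9.05 to 4.52 CPM, as was Fam19a3, from 3.23 to 1.18 CPM, and the other 6 named here were not called. They are the highest of 15241 genes over 8 libraries, so high values follow from the way these genes were picked.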

How the data were processed

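Total RNA was measured in 8 libraries of newborn mouse skeletal muscle. The submitters' processing notes list HTSeq 0.5.4p3 and TopHat2 2.0.9 with Bowtie2 2.1.0, FastQC 0.10.1, and DESeq2 1.4.5, on mm10. Annotation and strand setting are not given in the sources seen. Per the file headers, the deposited table holds a raw count for each gene and library. It also holds the authors' mean normalised counts, a signal that was not used for any test, the authors' ratio of wild-type to mutant with its log2, and their p-value, raw and adjusted.

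The test was that of edgeR 4.0.16 under R 4.3.3 (filterByExpr at a minimum count of 10, TMM scaling, quasi-likelihood test, Benjamini-Hochberg adjustment, threshold 0.05), and the script was checked on simulated counts. The biological coefficient of variation was 12.3%. CPM used TMM-scaled library sizes, and RPKM the exon-union length of GENCODE release M21, to which 20939 of 23336 symbols matched directly, 1903 through an older symbol and 494 not at all. Same-named libraries did not deviate together (correlations of -0.22 to -0.08), so names were not used as pairs. Alternatives were DESeq2 1.42.0, RLE scaling, no filter, a replicate block, leaving out libraries and, added later, scaling to muscle markers. The 9 genes and all lists were chosen with earlier results of these data known. Named were the 9 genes, called genes of each list or else the 2 most abundant, and the 3 most alike genes of Mb, Glrx5 and Tfrc; other names follow values seen. Some genes that this rule picks are not reported here.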

Additional observations from a re-analysis of the deposited data

Results flagged for a closer look

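In 56 groups of 4 libraries examined, 7 had a highest or lowest library far from the others (the gap over the range past Dixon's critical value), where about 1 in 20 is given by chance. Of the 9 genes, 0 were among them.

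Wild-type library 3 accounted for 4 of the 7. Beta-s, the beta globin row, had 714 CPM there against a next value of 211 CPM in its group. The summed erythroid markers, which include Beta-s, had 1153 CPM against a next value of 546 CPM, the summed macrophage markers 470 CPM against 371 CPM, and cytoglobin (Cygb) 15.2 CPM against 12.5 CPM.

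The other 3 were in ΔDMR1-U2. Beta-s was lowest in library 2, at 105 CPM against a next value of 216 CPM. The adipocyte markers summed to 632 CPM in library 1B against a next value of 290 CPM. The heart muscle markers, mostly Actc1, summed to 3057 CPM in library 2 against a next value of 2063 CPM.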

How the results depend on the processing

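Under 15 alternatives Glrx5 kept its call in 8 and lost it in 7, and Mb kept it in 6 and lost it in 9. The other 7 genes had no call to lose, and among their values 2 gained one and 3 reversed. The number of calls changed with the libraries in the fit: in the 8 fits that left out 1 library, 7 to 631 genes were called (4 to 294 higher, 3 to 337 lower), 0 to 2 of the 9 and 0 to 8 genes of the lists. The 631 came without ΔDMR1-U2 library 2, and the 7 without library 3 of ΔDMR1-U2 or library 1A of wild-type. Over these fits the log2 fold change ran from -0.56 to -0.49 for Glrx5 and from -0.87 to -0.66 for Mb. Ciao1 ran from -0.057 to 0.054 and reversed in 4 of them, and Beta-s ran from -0.95 to 0.060 and reversed in 1.

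Without both ΔDMR1-U2 libraries 1A and 1B, 16 genes were called (11 higher, 5 lower), with 0 of the 9 and 0 of the lists, at -0.50 for Glrx5, -0.84 for Mb and -0.058 for Ciao1. DESeq2 called 930 genes (427 higher, 503 lower), 10 of the lists and Tfrc at -0.57. With no filter on low counts, 6 genes of the lists were called, Tfrc among them at -0.58.

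With a replicate block by library name, 13 genes were called (3 higher, 10 lower), with 0 of the 9 and 0 of the lists, and by number, 1A and 1B sharing a block, 9 genes (4 higher, 5 lower), also 0 and 0. Under the block Glrx5 was at -0.53 by name and -0.53 by number (adjusted p = 0.0632 and 0.0682, edgeR), and Mb at -0.80 and -0.79 (adjusted p = 0.107 and 0.0930, edgeR). No library correlated best with the library of its own name in the other group.

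Scaled to the muscle markers, 620 genes were called (557 higher), with 9 of the lists, and values reversed to 0.042 for Fth1, 0.086 for Ftl1, 0.038 for Aco1, 0.096 for Neo1 and 0.0057 for Isca1. By CPM with no length, the places of 8 of the 9 genes moved, and Ftl1 was first in both orders. Apart from fewer samples where libraries were left out, the cause of these changes was not tested. Counts were lowest for Mb, at 130 to 388 per library, and Iscu, at 218 to 343, and the part of depth in their precision was not tested. The SE of the log2 fold change was 0.14 for Mb and 0.08 for Iscu, beside 0.12 for Tfrc, with 2095 to 5885 counts.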
